A study of Mus musculus with 12 samples.

Results

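The mitochondrial ribosomal protein genes are the nuclear genes for the proteins of the ribosome inside mitochondria. They were taken as every entry of the deposited count files whose symbol begins with Mrpl or Mrps directly followed by a digit, leaving out entries named as pseudogenes, which gave 77 of 23282 entries (48 Mrpl and 29 Mrps). The rule uses names alone and no measured value. All 77 passed the filter on low counts, so that each of them was tested among 14163 genes.

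Skin RNA of mice with skin lesions resembling atopic dermatitis was sequenced from the 3′ ends of polyadenylated transcripts (QuantSeq). Each library is taken here as 1 mouse, although the labels number the samples without naming animals. In the AD group (n = 5) and in the AD+OB group (n = 7), the latter called HF + AD in the study, lesions were raised on wild-type male C57BL/6J mice by 0.5% 2,4-dinitrochlorobenzene (DNCB), a contact sensitizer applied to the back skin 3 times per week for 6 weeks. AD mice received normal chow, and AD+OB mice a high-fat diet (60 kcal% fat) for 4 weeks before DNCB and 10 weeks in all. Mice were 5 weeks old on arrival, both groups carried the DNCB lesion, and no library of untreated skin was analysed here. The study reports higher body weights and more severe skin thickening in HF + AD than in AD mice. The thickening was measured on ear sections, and the study describes similarities in dorsal skin. Diet, obesity and severity of the lesion therefore cannot be told apart in this comparison.

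Mitochondria keep a small genome of their own, which encodes core subunits of the respiratory chain and of ATP synthase together with the ribosomal and transfer RNAs needed to translate them. All protein components of the mitochondrial ribosome are made from nuclear genes on cytosolic ribosomes and imported. The large subunit joins amino acids and holds the exit tunnel, the small subunit reads the mRNA, and in mammals both carry proteins with bacterial counterparts next to proteins found only in mitochondria. In skin, proliferating keratinocytes, muscle fibres and fat cells differ widely in how many mitochondria they hold.

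The symbol does not always give the place of a protein. Mrps18a and Mrps30 carry small-subunit names, but their proteins sit in the large subunit, and Mrps36 encodes a part of the 2-oxoglutarate dehydrogenase complex of the citric acid cycle rather than of the ribosome. By place, 50 members belonged to the large subunit, 26 to the small subunit and 1 to neither.

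Between 9746937 and 11688979 reads were counted per AD library and between 10726845 and 13462434 per AD+OB library. Of these, 54171 to 61747 per AD library and 55387 to 68957 per AD+OB library fell on the members. Each AD library had reads on 13100 to 15063 genes and each AD+OB library on 15522 to 16677, so that fewer genes were detected in every AD library than in any AD+OB library. AD libraries were also less alike, with a median Pearson's r across genes of 0.895 within AD, 0.962 within AD+OB and 0.917 between the groups. Levels are given as CPM, the count of a gene relative to its library's total, with totals scaled by edgeR's TMM method. Reads come from transcript ends, so that CPM was not divided by gene length. A count of 0 in 1 library allows up to 3 counts, or 0.223 to 0.308 CPM, which covers counting error only.

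Sequences near the RefSeq starts of 7 members that the results turn on are shown first. They surround matches to motifs of NRF1, ETS factors such as GABP, and YY1, nuclear factors known to act on genes for mitochondrial proteins. Capitals mark the match, and 10 flanking bases are given on each side where the window allows. All are from RefSeq on GRCm38.p6, written 5′ to 3′ along the gene. Counted from the RefSeq start site, the stretches lie between -250 (Mrpl18) and 50 (Mrps33). RefSeq and GENCODE starts can differ, and the Mrpl18, Mrps33 and Mrpl35 stretches lie inside the GENCODE M21 spans given for those genes below. The Mrpl18 stretch, though before the RefSeq start, lies at the very start of its GENCODE span. Mrpl44 at chr1:79775973-79776002 (plus strand) and Mrpl12 at chr11:120484546-120484575 (plus strand) hold an NRF1 match. Mrpl18 at chr17:12916315-12916341 (minus strand), Mrps33 at chr6:39810887-39810908 (minus strand) and Mrpl52 at chr14:54426852-54426878 (plus strand) hold an ETS match. Mrpl35 at chr6:71823743-71823771 (minus strand) and Mrps11 at chr7:78783013-78783041 (plus strand) hold a YY1 match.
Mrpl44: agaagcacttGCGCACGCGCagtacactag
Mrpl12: tattgtctccGCGCCTGCGCgtcgcaccgc
Mrpl18: actgaaaacgCCGGAAGtagggggctg
Mrps33: gggggcgggcCTTCCGGggacg
Mrpl52: aagatgtcggCTTCCGGttttcccggc
Mrpl35: ggcaggctgcAAGATGGCGgcttccatct
Mrps11: ctacgggcgcCGCCATCTTtctgtcttcc

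To ask whether these genes differed in DNCB-treated skin between mice on the high-fat diet and on chow, AD+OB was compared with AD. Of the 77 members, 6 were lower and 0 were higher in AD+OB at an adjusted p under 0.05 (edgeR quasi-likelihood test, Benjamini-Hochberg adjustment over all genes tested). Those that fell were Mrpl44, Mrps33, Mrpl46, Mrpl18, Mrpl35 and Mrpl12. Over all genes tested, 4.77% were lower and 4.43% were higher, against 7.79% and none of the members. These shares are not matched for level. The members had a median mean count of 616 reads, against 275 for all genes tested, and more genes were called at higher levels. Shares by level are given below. At an unadjusted p under 0.05, 19 members were lower and 9 were higher, where 12.8% and 12.3% of all genes were. DESeq2's Wald test called 10 members lower and 1 higher, the latter Mrps10. The log2 fold changes of the members were spread around zero, with 33 above and 44 below it, a median of -0.06, an interquartile range of -0.33 to 0.23 and a full range of -0.99 to 1.14. The median of all genes tested was 0.02. After a correction for GC content the members' median was -0.16 and that of all genes -0.05, and with library totals alone they were -0.02 and 0.07.

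**Figure D1:**
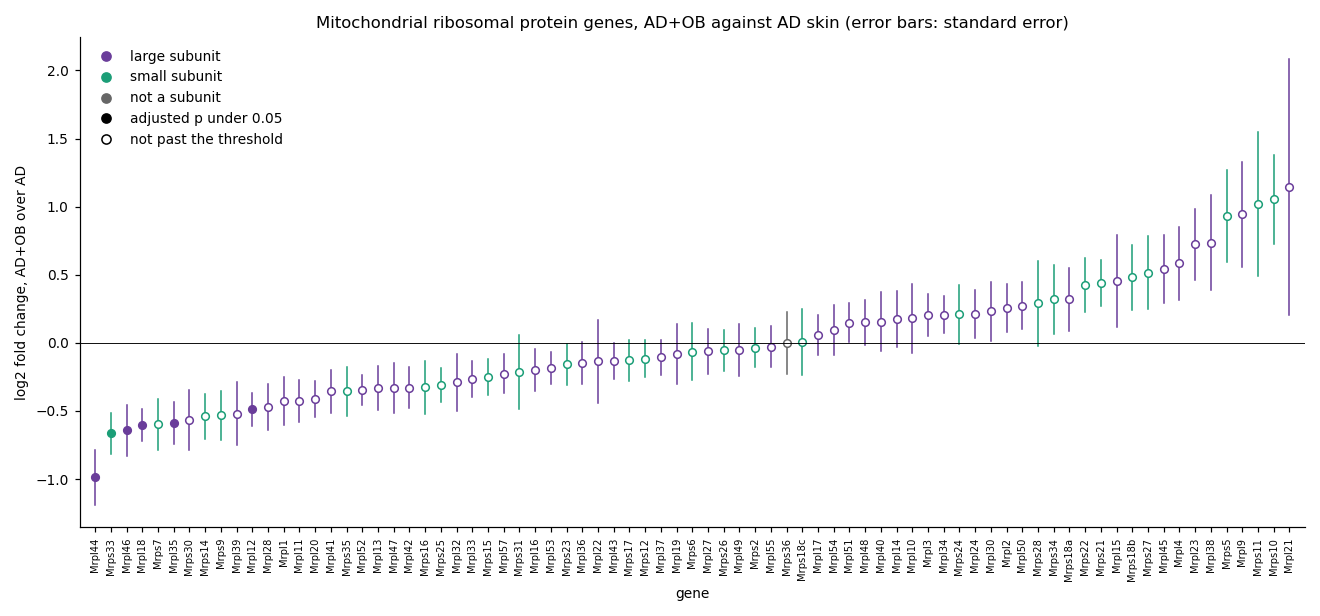
Log2 fold change (AD+OB over AD, y axis) of each of the 77 members (x axis, ordered by value) with its standard error, coloured by ribosomal subunit, filled where the adjusted p was under 0.05. The 6 filled points lie among the negative values from -0.99 to -0.49, while the largest positive values, up to 1.14, have the widest bars.

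Of the 6 genes that fell, 5 encode large-subunit proteins. Mrpl44 (GRCm38 chr1:79776018-79781445), for a large-subunit protein found only in mitochondria that lies near the exit tunnel, had the largest fall of all members. Its level was 54.6, 49.4, 49.8, 31.3 and 42.1 CPM in AD mice 1 to 5, and in AD+OB the lowest, median and highest were 16.1, 23.7 and 29.7 CPM. The highest AD+OB mouse stayed below the lowest AD mouse. The log2 fold change was -0.99 (SE 0.20, edgeR adjusted p = 0.0096).

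Mrpl18 (chr17:12911349-12916345), counterpart of a bacterial protein that binds the 5S ribosomal RNA, had the highest mean level of all members. In AD mice 1 to 5 it was at 338, 367, 341, 296 and 283 CPM, and in AD+OB at 181 (lowest), 204 (median) and 255 CPM (highest). The groups did not overlap, and the log2 fold change was -0.60 (SE 0.12, edgeR adjusted p = 0.00833).

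Mrpl12 (chr11:120484613-120489065) encodes a protein of the stalk that recruits translation factors, and is also known to bind the mitochondrial RNA polymerase. AD mice 1 to 5 had 208, 193, 202, 186 and 249 CPM, whereas AD+OB mice had 117, 153 and 164 CPM as lowest, median and highest. No AD+OB mouse reached the lowest AD mouse. The log2 fold change was -0.49 (SE 0.12, edgeR adjusted p = 0.0216).

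Mrpl35 (chr6:71812997-71826969) is the counterpart of a bacterial large-subunit protein. Its level was 107, 134, 115, 109 and 96.0 CPM in AD mice 1 to 5, and 58.5, 67.0 and 102 CPM (lowest, median, highest) in AD+OB. In AD+OB, 1 mouse lay within the AD range and the other 6 below it. The log2 fold change was -0.59 (SE 0.15, edgeR adjusted p = 0.0269), and the call was lost when AD mouse 2 or AD+OB mouse 1, 2, 4 or 7 was left out.

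Mrpl46 (chr7:78775236-78783531), for a protein of the large subunit's central protuberance that is found only in mitochondria, was at 41.0, 63.5, 53.9, 48.2 and 40.3 CPM in AD mice 1 to 5. In AD+OB the lowest, median and highest were 22.5, 32.2 and 40.35 CPM, with 6 of 7 mice below all AD mice. The log2 fold change was -0.64 (SE 0.19, edgeR adjusted p = 0.0408). It rested on single libraries more than the others did, since leaving out AD mouse 2, 3 or 4 or AD+OB mouse 1, 2, 3, 4 or 6 ended the call.

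The small subunit had 1 gene that fell, Mrps33 (chr6:39801804-39810988), for a protein without a bacterial counterpart. AD mice 1 to 5 were at 110.3, 113, 130.5, 121 and 113 CPM, and AD+OB mice at 55.2, 79.2 and 93.4 CPM as lowest, median and highest. The highest AD+OB mouse stayed below the lowest AD mouse, and the log2 fold change was -0.66 (SE 0.15, edgeR adjusted p = 0.0145).

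**Figure D2:**
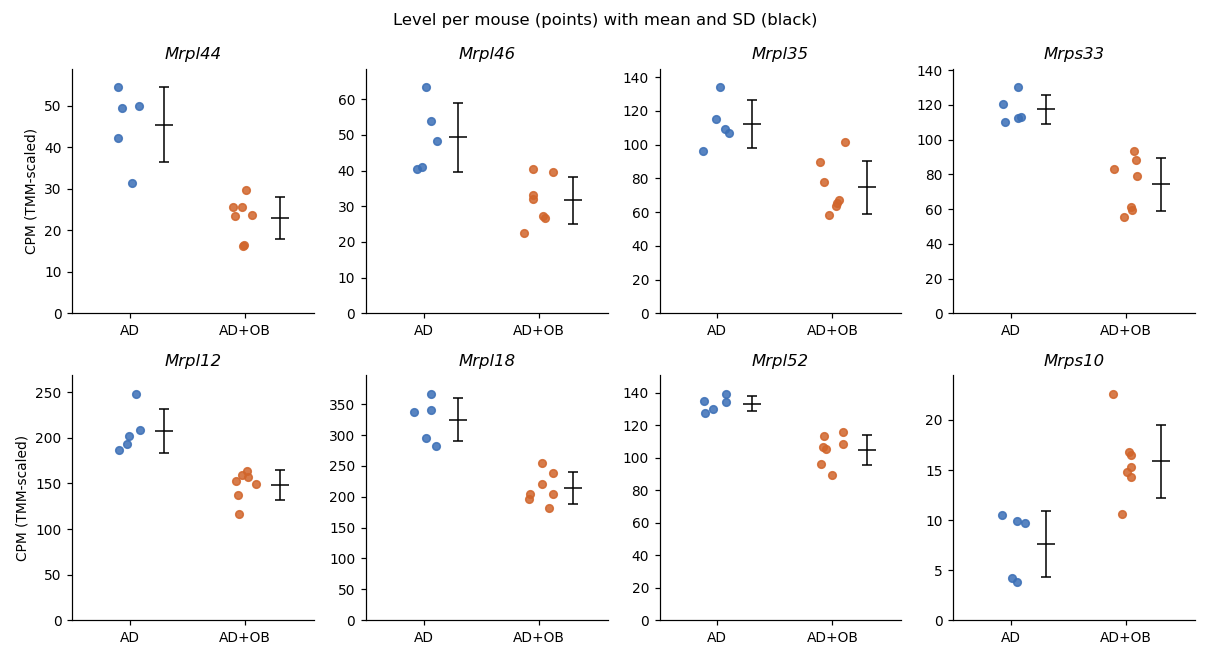
CPM with TMM-scaled totals (y axis, from 0) of 8 members in each AD (blue) and AD+OB (orange) mouse, with mean and SD in black. The AD+OB points lie below all AD points for Mrpl44, Mrps33, Mrpl12, Mrpl18 and Mrpl52, overlap with them by 1 mouse for Mrpl35 and Mrpl46, and lie above them for Mrps10.

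Groups that did not overlap were found for 6 members, 5 of them lower in AD+OB (Mrpl44, Mrps33, Mrpl18, Mrpl12 and Mrpl52) and 1 higher (Mrps10). Over all genes tested, 2.56% were lower and 2.9% were higher without overlap. Mrpl52 (chr14:54426909-54429756), for a large-subunit protein found only in mitochondria, was held within a narrow band in AD, at 139, 135, 135, 130.2 and 127 CPM, and lay at 89.3, 107 and 115 CPM (lowest, median, highest) in AD+OB. Its log2 fold change of -0.35 (SE 0.11) did not pass the adjusted threshold (edgeR adjusted p = 0.0616).

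Mrps10 (chr17:47368887-47381417), counterpart of a bacterial small-subunit protein, was the one member higher in every AD+OB mouse than in any AD mouse. It was at 9.70, 3.83, 10.5, 4.24 and 9.86 CPM in AD mice 1 to 5, and at 10.7, 15.3 and 22.6 CPM as lowest, median and highest in AD+OB. The lowest AD+OB and the highest AD mouse nearly met. With a log2 fold change of 1.06 (SE 0.33) it stood just outside the threshold in edgeR (adjusted p = 0.0514) and passed it in 10 of 26 alternative fits.

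Mrps7, a head protein of the small subunit with a bacterial counterpart, stood just outside the threshold in the other direction. Its level in AD mice 1 to 5 was 77.9, 74.2, 137, 103 and 133 CPM, and the AD+OB mice had 53.2, 68.3 and 89.2 CPM (lowest, median, highest). AD mice 1 and 2 lay within the AD+OB range. The log2 fold change was -0.60 (SE 0.19, edgeR adjusted p = 0.0534).

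Members that met only the unadjusted threshold are given by their names, having been chosen by these values. On the lower side these were, besides Mrps7, Mrpl52 and Mrps30, the genes Mrps14, Mrps9, Mrpl39, Mrpl28, Mrpl1, Mrpl11, Mrpl20, Mrpl41, Mrpl42 and Mrps25. Mrps14 had 102 ± 18.2 CPM (SD, n = 5) in AD and 69.8 ± 15.3 CPM (SD, n = 7) in AD+OB. Mrpl20 had 185 ± 25.8 CPM in AD and 139 ± 19.1 CPM in AD+OB. Both missed the adjusted threshold by little (edgeR adjusted p = 0.0522 and 0.0587), and in both the groups overlapped, with 5 and 4 of 7 AD+OB mice below every AD mouse. On the higher side were, besides Mrps10, Mrps5 and Mrpl9, the genes Mrps22, Mrps21, Mrpl45, Mrpl4, Mrpl23 and Mrpl38. Mrpl23 had 16.8 ± 4.94 CPM (SD, n = 5) in AD and 27.7 ± 8.41 CPM (SD, n = 7) in AD+OB, with 5 of 7 AD+OB mice above every AD mouse (edgeR adjusted p = 0.0909).

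The genes that fell came from 3 of the 4 classes given by subunit and bacterial ancestry. Of 30 large-subunit genes with bacterial counterparts 3 fell (Mrpl12, Mrpl18 and Mrpl35), and of 20 found only in mitochondria 2 did (Mrpl44 and Mrpl46). In the small subunit, 0 of 16 with bacterial counterparts and 1 of 10 found only in mitochondria fell (Mrps33). At an unadjusted p under 0.05, 3 of those 16 were lower (Mrps7, Mrps14 and Mrps9) and 3 higher (Mrps10, Mrps5 and Mrps21), and DESeq2's Wald test called Mrps7 and Mrps14 lower and Mrps10 higher. The median log2 fold change was -0.09 in the large and -0.06 in the small subunit. These class differences were not tested.

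Of the members singled out above for their place, and of the Mrps18 paralogues, none passed the threshold. Mrps30 was at 29.1, 70.5, 82.4, 45.1 and 43.3 CPM in AD mice 1 to 5 and at 29.6, 35.1 and 42.3 CPM (lowest, median, highest) in AD+OB, with a log2 fold change of -0.57 (SE 0.22, edgeR adjusted p = 0.113). AD mice 2, 3, 4 and 5 lay above all AD+OB mice, AD mice 2 and 3 by the most, and AD mouse 1 lay below all AD+OB mice. Of 26 alternatives Mrps30 passed the threshold in 1, without AD mouse 1 (edgeR adjusted p = 0.027). Among the Mrps18 paralogues, Mrps18a of the large subunit had a log2 fold change of 0.32 (SE 0.23, edgeR adjusted p = 0.427). For Mrps18b and Mrps18c of the small subunit it was 0.48 (SE 0.24, adjusted p = 0.218) and 0.01 (SE 0.25, adjusted p = 0.992). Mrps18b was higher in 6 of 7 AD+OB mice than in every AD mouse, and the levels of the others overlapped over most of their range. Mrps36 was at 20.97 ± 6.87 CPM (SD, n = 5) in AD and 20.97 ± 2.18 CPM (SD, n = 7) in AD+OB.

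Level and direction went together among the members. The largest positive log2 fold changes belonged to genes at low levels. Mrpl21, Mrps11 and Mrpl9, all with bacterial counterparts, had the lowest mean levels, at 2.83, 6.08 and 7.82 CPM. Mrpl21 was not detected in AD mice 1 and 4 and reached 4.24, 1.72 and 2.35 CPM in AD mice 2, 3 and 5, against 1.58, 3.70 and 6.16 CPM (lowest, median, highest) in AD+OB. The groups overlapped, and its log2 fold change of 1.14 had an SE of 0.94 (edgeR adjusted p = 0.489). Over the alternatives it ran from 0.82 to 3.17, the latter in limma-voom with sample quality weights, and it was 1.85 without AD mouse 2.

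For Mrps11 the AD mice 1 to 5 were at 3.72, 7.24, 5.75, 1.502 and 0.814 CPM, and the AD+OB mice at 4.21, 6.84 and 11.6 CPM (lowest, median, highest). For Mrpl9 they were at 2.27, 5.48, 4.24, 7.51 and 5.88 CPM, against 5.62, 9.46 and 15.6 CPM. Mrps5, for another small-subunit protein with a bacterial counterpart, was at 12.1, 3.93, 14.3, 13.3 and 17.8 CPM in AD and at 12.4, 20.2 and 32.9 CPM in AD+OB. Each overlapped between groups, and the log2 fold changes were 1.02 (SE 0.53), 0.94 (SE 0.39) and 0.93 (SE 0.34), none past the threshold (edgeR adjusted p = 0.246, 0.134 and 0.0926). For Mrps11 the alternatives ran from 0.77 to 1.89.

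The best expressed members after Mrpl18 were Mrpl33 and Mrps12, and neither passed the threshold. Mrpl33 had 197 ± 22.3 CPM (SD, n = 5) in AD and 164 ± 27.8 CPM (SD, n = 7) in AD+OB, with a log2 fold change of -0.26 (SE 0.13, edgeR adjusted p = 0.234). Mrps12, of the decoding site, had 182 ± 33.3 CPM and 168 ± 19.3 CPM in the same groups, with a log2 fold change of -0.12 (SE 0.14, edgeR adjusted p = 0.658). Both overlapped between groups.

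Across the 77 members, Spearman's rho between log2 fold change and mean CPM was -0.53, and across all 14163 genes tested it was -0.15 (genes share libraries and are not independent). When all genes tested were ordered by mean count and cut into 5 bins of equal size, 1, 5, 16, 28 and 27 members fell into them from lowest to highest. Their median log2 fold changes were 1.14, 0.94, 0.15, -0.05 and -0.23, against 0.18, 0.10, 0.03, -0.02 and -0.07 for all genes in the same bins. The 6 members of the lower 2 bins were all positive, and 23 of the 27 in the highest bin were negative. From the lowest to the highest bin, 0.212%, 0.883%, 3.57%, 5.86% and 13.3% of all genes were lower at the adjusted threshold. The shares higher were 1.69%, 1.52%, 3.67%, 6.67% and 8.58%. In the same bins 0, 0, 1, 1 and 4 members were lower, and 0 were higher in each. The 6 members lower therefore do not by themselves show an excess over genes of similar level, which was not tested. On the higher side 0 members stood beside shares of 1.52% to 8.58% of all genes, which was not tested either. The lower number of genes detected in AD libraries moves with the link between level and direction, and its part in that link was not tested. Spearman's rho of log2 fold change with transcript GC content over the members was 0.24.

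**Figure D3:**
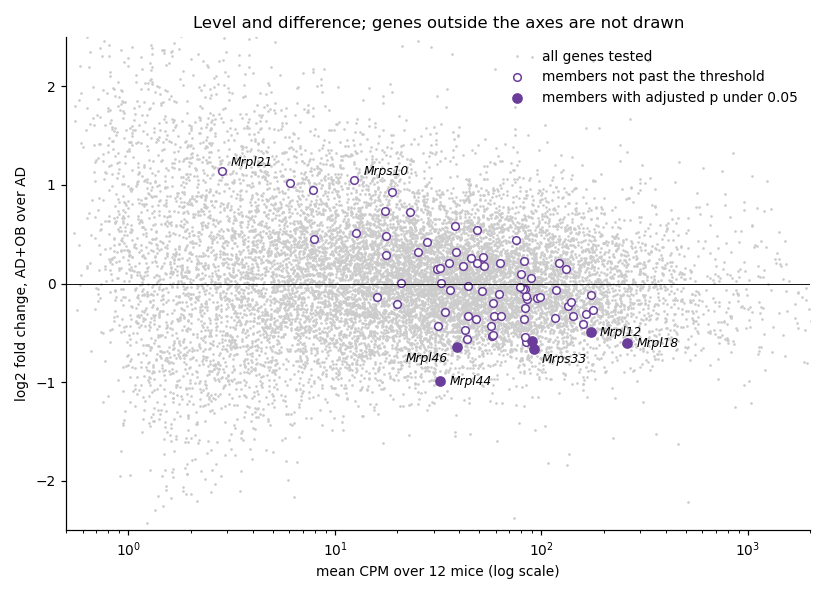
Mean CPM over the 12 mice (x axis, log scale) against log2 fold change (y axis) for all genes tested (grey) and the members (purple, filled where the adjusted p was under 0.05). The members slope from Mrpl21 at 2.83 CPM and 1.14 to Mrpl18 at 260.2 CPM and -0.60.

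Mice differed more within AD than within AD+OB. The SD of log2(CPM + 1) over mice had a median over members of 0.34 in AD and 0.23 in AD+OB, and was larger in AD for 53 of 77 members. Over all genes tested the medians were 0.53 and 0.33, and 78.6% had the larger SD in AD.

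The summed level of the members describes the family as a whole and was not tested. It was 5259, 5701, 5466, 5457 and 5549 CPM in AD mice 1 to 5, and 4584, 4816 and 5322 CPM as lowest, median and highest in AD+OB. The means were 5487 ± 160.4 CPM (SD, n = 5) and 4883 ± 231 CPM (SD, n = 7), with 6 of 7 AD+OB mice below every AD mouse. The large subunit summed to 3660.1 to 4102 CPM in AD and 3217 to 3684 CPM in AD+OB, and the small subunit to 1579 to 1733 CPM and 1348 to 1619 CPM. The sums of related gene families were lower as well. Cytosolic ribosomal protein genes summed to 75627 ± 4976 CPM (SD, n = 5) in AD and 66553 ± 3810.3 CPM (SD, n = 7) in AD+OB, with 7 of 7 AD+OB mice below every AD mouse. Nuclear-encoded oxidative phosphorylation genes summed to 20664 ± 1238 CPM and 19059 ± 848 CPM in the same groups, with 5 of 7 below. In these sums the members of high level weigh most, whereas the median log2 fold change gives each member the same weight. The sums also depend on the TMM factors, which ran from 0.944 (AD mouse 1) to 1.04 (AD+OB mouse 2). A factor under 1 raises the CPM of a library, and sums with library totals alone were not computed. AD mouse 1, the lowest AD mouse in the members' sum, also had the lowest factor. Before scaling, members took 58014 of 11688979 reads in AD mouse 1. They took larger shares in AD+OB mouse 3 (68957 of 13462434) and AD+OB mouse 6 (60061 of 12088622). For the members, 6 of 7 below every AD mouse therefore holds with TMM scaling only. The counts for the other families may depend on it as well. With the same scaling, all entries summed to 1018540 ± 28547 CPM (SD, n = 5) in AD. In AD+OB they summed to 987332 ± 18445 CPM (SD, n = 7), with 2 of 7 mice below every AD mouse.

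**Figure D4:**
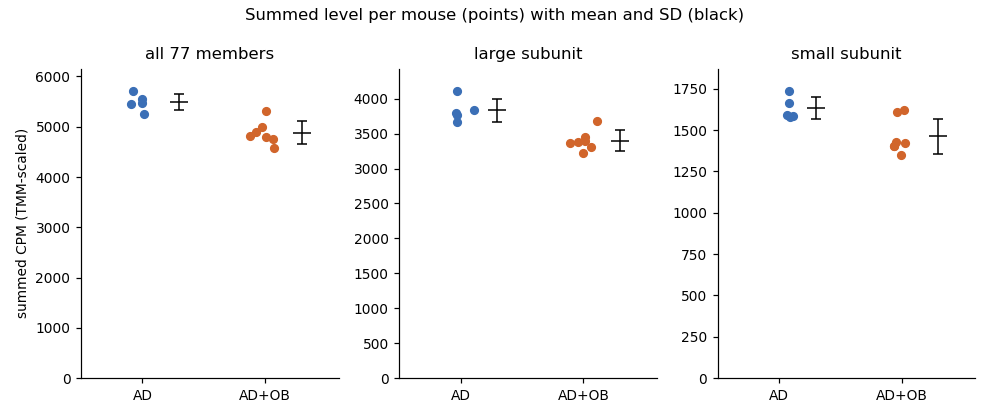
Summed CPM with TMM-scaled totals (y axis, from 0) of all 77 members, of the 50 large-subunit and of the 26 small-subunit members in each AD (blue) and AD+OB (orange) mouse, with mean and SD in black. AD+OB mice lie lower, with 6 of 7 below all AD mice for all members and for the large subunit, and 5 of 7 for the small subunit.

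The rest of the mitochondrial translation pathway, the upkeep of mitochondrial DNA and the regulators of biogenesis were read from gene lists with the same test. Of 6 further ribosomal subunits that carry other symbols (Dap3, Chchd1, Aurkaip1, Ptcd3, Gadd45gip1 and Ict1), 1 fell and none rose, with a median log2 fold change of -0.33. The one that fell was Ptcd3, a small-subunit protein, at 88.5 ± 15.3 CPM (SD, n = 5) in AD and 59.0 ± 12.8 CPM (SD, n = 7) in AD+OB (log2 fold change -0.58, SE 0.17, edgeR adjusted p = 0.0421), lost without AD mouse 2, 3 or 4 or AD+OB mouse 1, 2, 4 or 7.

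Of 16 factors for initiation, elongation, termination and mRNA handling, 2 fell and none rose, and 13 were negative (median -0.22). Lrpprc, which stabilizes mitochondrial mRNAs, fell furthest, from 165 ± 49.7 CPM (SD, n = 5) in AD to 60.7 ± 16.8 CPM (SD, n = 7) in AD+OB. Its lowest AD mouse was at 116 CPM and its highest AD+OB mouse at 78.9 CPM, and the log2 fold change was -1.45 (SE 0.22, edgeR adjusted p = 0.00379). Gfm1, the elongation factor that moves the ribosome along the mRNA, had a log2 fold change of -0.61 (SE 0.17, edgeR adjusted p = 0.037), lost without any 1 of 10 mice (AD mice 1 to 4 and AD+OB mice 1, 2, 3, 5, 6 and 7).

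Of 23 ribosome assembly factors, none passed the threshold in edgeR, with 3 lower and none higher at an unadjusted p under 0.05 and a median of -0.01. The list of 22 genes for the charging of mitochondrial transfer RNAs includes Qrsl1, Gatb and Gatc, which are not charging enzymes themselves. Of the 22, 2 fell and none rose (median -0.08). These were Lars2, the leucine enzyme, with a log2 fold change of -0.91 (SE 0.22, edgeR adjusted p = 0.0201), lost without AD mouse 2, and Rars2, the arginine enzyme, with -0.71 (SE 0.20, edgeR adjusted p = 0.0368), lost without AD mouse 2 or 4 or AD+OB mouse 1, 2, 3, 4, 6 or 7. In both the groups did not overlap.

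Of 9 genes for transcription and upkeep of mitochondrial DNA, 1 fell, Top1mt, the mitochondrial topoisomerase, with a log2 fold change of -0.82 (SE 0.23, edgeR adjusted p = 0.0328), lost without AD mouse 3 or 4 or AD+OB mouse 1, 2 or 4. The median of that list was -0.38. Of 9 regulators of mitochondrial biogenesis, 7 were positive (median 0.19), none rose, and Pprc1, a coactivator of the PGC-1 family, fell (log2 fold change -0.81, SE 0.21, edgeR adjusted p = 0.0237), lost without AD mouse 2 or 4 or AD+OB mouse 2. At an unadjusted p under 0.05, 1 of the 6 further subunits, 1 of the 16 factors and 2 of the 22 charging genes were higher. So were 1 of the 9 genes for mitochondrial DNA and 2 of the 9 regulators.

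The cytosolic ribosomal proteins and the nuclear-encoded genes of oxidative phosphorylation, the families nearest in function, moved in both directions. The oxidative phosphorylation list was taken by symbol and is not limited to subunits. It includes Sdhaf1 to Sdhaf4 and Atp5sl, of which Atp5sl was among the genes that rose. Of 82 cytosolic ribosomal protein genes tested, 5 rose and 11 fell (19.5% called, median -0.11), among them Rpl10a with 0.68 (SE 0.13, edgeR adjusted p = 0.00811) and Rpl12 with -0.52 (SE 0.11, edgeR adjusted p = 0.0123). Of 87 oxidative phosphorylation genes tested, 8 rose and 9 fell (19.5% called, median -0.05), among them Ndufa3 of complex I with 0.98 (SE 0.17, edgeR adjusted p = 0.00492) and Atp5c1 of ATP synthase with -0.77 (SE 0.16, edgeR adjusted p = 0.00969). Both families are expressed higher than the members, with a median mean count of 6490.2 and 2043 reads, against 616 for the members and 275 for all genes tested. Over all genes tested 9.2% were called.

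**Figure D5:**
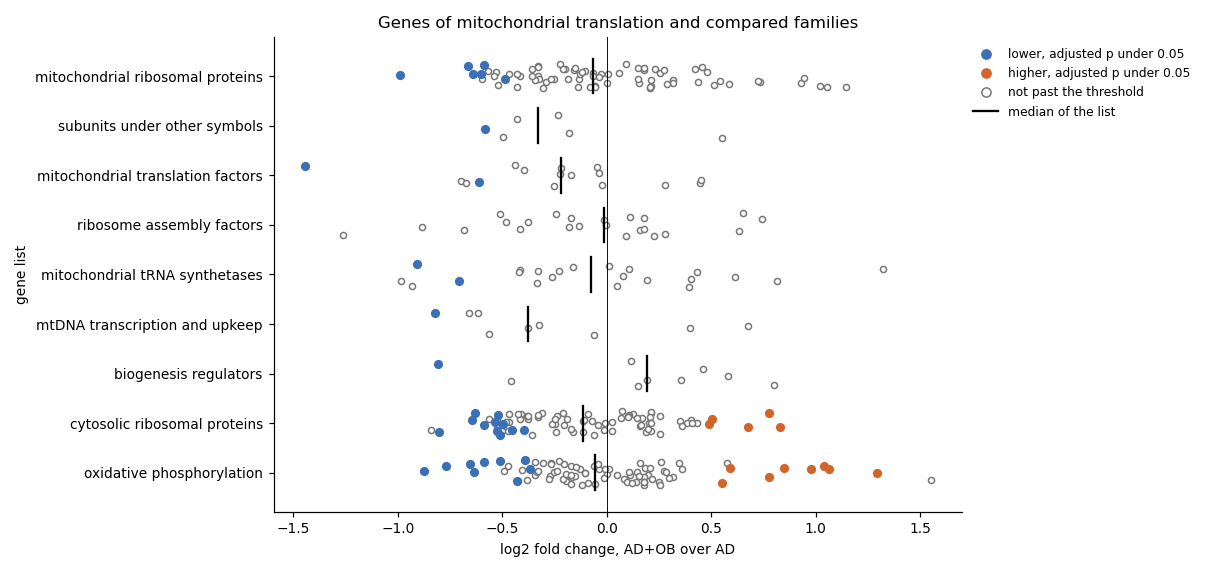
Log2 fold change (AD+OB over AD, x axis) of each gene in the mitochondrial ribosomal proteins, the lists of mitochondrial translation, mitochondrial DNA and biogenesis, and the compared families (y axis), filled where the adjusted p was under 0.05 (blue lower, orange higher), with the median of each list as a bar. In the members and the 6 lists below them every filled point lies below zero, whereas the last 2 families have filled points on both sides. The assembly factors have no filled point, and the median bar of the biogenesis regulators lies above zero (0.19).

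Marker genes of cell types differed between the groups beside these results. Over all genes tested 4.77% were lower and 4.43% higher, and in the highest of the 5 bins by mean count 13.3% and 8.58%. The median mean count was 1548 reads for skeletal muscle, 4312.5 for basal keratinocyte and 95.7 for endothelial markers. The marker counts below were not matched for level. Markers of skeletal muscle, a tissue rich in mitochondria that lies under the skin, were lower for 4 of 15 genes and higher for none (14 of 15 negative), and their summed level was 2125 to 4837 CPM in AD and 1289 to 3237 CPM in AD+OB, with no marker at 0. Cell cycle genes were lower for 3 of 13 and higher for none (10 of 13 negative), at 1211 to 1885 CPM in AD and 991 to 1373 CPM in AD+OB. Basal keratinocyte markers were higher for 3 of 6 and lower for none, at 3603 to 5259 CPM in AD and 6224 to 10866 CPM in AD+OB, which did not overlap. Hair shaft markers rose for 3 of 13 (11 positive) and inner root sheath markers for 2 of 8 (5 positive). Endothelial markers rose for 2 of 6 (4 positive). Of the adipocyte markers 1 of 10 rose, Lipe, while 6 of 10 were negative and their median log2 fold change was -0.36. None of these markers passed the threshold as lower. Where no marker passed in one direction in edgeR, 0 skeletal muscle and 1 cell cycle gene were higher, and 1 adipocyte and 0 basal keratinocyte, hair shaft, inner root sheath and endothelial markers were lower, at an unadjusted p under 0.05. Of 7 suprabasal keratinocyte, 7 fibroblast and 9 leukocyte markers, none passed the threshold in edgeR, and at an unadjusted p under 0.05 the suprabasal list had 1 higher and 0 lower, the fibroblast list 1 and 0, and the leukocyte list 1 and 3. The part of these differences in the members' values was not tested, and in bulk skin fewer cells of a type and less RNA per cell cannot be told apart.

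Motifs in the promoters were described from the RefSeq windows of 250 bases before to 50 bases after each start, found for 68 of 77 members and 27025 genes in all. Both strands were searched for GCGC followed by any base and then TGCGC (NRF1), for CCGGAAG (ETS) and for AAGATGGCG (YY1). The NRF1 motif was held by 13 members or 19.1% (5.19% of all genes), the ETS motif by 25 or 36.8% (9.93% of all) and the YY1 motif by 8 or 11.8% (1.64% of all). At least 1 of the 3 was found in 40 members or 58.8%, against 15.1% of all genes, with 6 members holding 2 kinds. Matches of different kinds did not overlap in any member, while 2 NRF1 matches in Mrps26 overlapped each other.

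Of the 6 genes that fell, 5 held one of these motifs, as the sequences above show, and Mrpl46 held none in its window. The median log2 fold change was -0.08 in the 40 members with a motif and -0.16 in the members without one. The difference was not tested, and a match is a string of letters and not a site of binding.

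Mrpl46 and Mrps11 lie head to head on chromosome 7, with RefSeq starts 42 bases apart on opposite strands. Mrpl46 fell, with a log2 fold change of -0.64 (SE 0.19), while Mrps11 had 1.02 (SE 0.53) and did not pass the threshold. The difference between them was not tested, and their exons overlap at the start in GENCODE M21. Exons of another annotated gene overlapped those of 32 of the 77 members, and for 11 members they reached the last 500 bases of the gene model, from which these reads come. Among the genes that fell this was true of Mrpl12 alone, whose end is overlapped by the noncoding RNA Gm16755 on the opposite strand. It was also true of Mrps7, overlapped by Mif4gd. Whether the counting used strand is not given in the sources used here, so that reads of such pairs may not have been told apart.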

How the data were processed

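Skin RNA libraries of 5 AD and 7 AD+OB mice were grouped by GEO's treatment labels. A figure legend of the study gives a larger AD group than the one analysed here. The labels number the samples without naming animals, so that p-values measure the spread between these samples. RNA was extracted with Trizol, libraries were made with the Lexogen QuantSeq kit, and the authors deposited, for each gene symbol, raw counts of reads without normalization. The submitters' processing notes name Bowtie2, bedtools and mm10. Versions, the handling of duplicate reads and of strand, and the counting settings are not given in the sources used here, and no molecular identifiers are described.

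The groups were compared in R 4.3.3 with edgeR 4.0.16 (TMM, filterByExpr, a quasi-likelihood fit with group as the only term, two-sided, Benjamini-Hochberg adjustment over 14163 genes, threshold 0.05). The study normalized with edgeR and compared groups gene by gene with an unpaired two-group test, which was run here as an alternative. The SE is the absolute log2 fold change divided by the square root of F. The steps were tested on simulated data. Alternatives were fitted with DESeq2 1.42.0 and limma 3.58.1. Python 3.11.15, with pandas 2.3.3, NumPy 2.4.6, SciPy 1.17.1 and matplotlib 3.10.9, served for the summaries and plots. Positions, overlaps and the GC content of transcripts were read from GENCODE M21 (GRCm38), and promoters from RefSeq on GRCm38.p6. Both are the assembly that mm10 names.

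The members, the gene lists, the markers and the tests were chosen with earlier results of these data known. Members named are those past the threshold, the 5 largest changes in each direction with a mean count of at least 20, those whose groups do not overlap, the 3 highest and 3 lowest by level, and Mrps18a, Mrps18b, Mrps18c, Mrps30 and Mrps36. In other lists, up to 4 genes past the threshold with the smallest p were eligible. The other members that met only the unadjusted threshold fall outside this rule and were named after their values were seen.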

Additional observations from a re-analysis of the deposited data

Results flagged for a closer look

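In 42 groups of values checked, namely each named member and the summed level within AD and within AD+OB, the lowest or highest mouse was compared with the gap that Dixon's test allows, which chance exceeds in about 1 of 20 groups. It was exceeded in 2. Mrps5 in AD mouse 2 was at 2.30 on the log2(CPM + 1) scale, where the next lowest AD mouse was at 3.71 (gap over range 0.727, critical value 0.71). Mrps18b in AD+OB mouse 5 was at 3.65, where the next lowest AD+OB mouse was at 4.32 (gap over range 0.657, critical value 0.568). Neither gene passed the threshold with or without that mouse.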

How the results depend on the processing

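The number of members lower in AD+OB, 6 in edgeR, was 5 to 9 under the other scalings, filters and priors, limma-trend, limma-voom with sample quality weights, the study's two-group test and summed symbols. It was 10 with DESeq2's Wald test and 11 after the GC content correction. It lay between 4 and 9 when 1 mouse was left out, with 4 without AD+OB mouse 1 or 2 and 9 without AD+OB mouse 5. The number of members higher, 0 in edgeR, was 1 (Mrps10) with library totals alone, upper-quartile factors, at least 10 counts in every library, DESeq2's Wald test, limma-trend and the study's two-group test. It lay between 0 and 2 when 1 mouse was left out, with Mrps10 and Mrps21 without AD mouse 1, and Mrpl4 and Mrps10 without AD mouse 5.

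Replicate numbers did not pair the mice (correlation of same-numbered deviations between -0.08 and 0.04, and no sample closest to its own number). With the replicate block on the mice numbered 1 to 5, 0 members were lower and 0 higher (11 and 5 at an unadjusted p under 0.05) and 183 genes were called. The same mice without the block, an alternative chosen after seeing the data, gave 3 members lower (Mrpl18, Mrpl44 and Mrps33) and 473 genes.

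Over all genes, 1303 were called in edgeR, 766 in limma-voom with sample quality weights, and 639 to 1461 when 1 mouse was left out (803 without AD mouse 2, and 686, 639 and 794 without AD+OB mouse 1, 2 and 4). Of the calls over all genes 48.1% were higher, against 58.9% with library totals alone and 35.3% after the GC content correction. The median of all genes was shifted most in limma-trend, to 0.15.

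Mrpl18, Mrpl44 and Mrps33 passed the threshold in 25 of 26 alternatives, Mrpl12 in 24, Mrpl35 in 19 and Mrpl46 in 12. Among the 20 named members, the direction turned for Mrps18c and Mrps36, which lie near zero, and for no other. The unnamed members were not followed one by one. Mrps18c became -0.00065 with DESeq2's size factors, -0.00064 in its Wald test, -0.035 with mice 1 to 5, and lay between -0.15 (without AD mouse 2) and 0.25 (without AD mouse 3) when 1 mouse was left out. Mrps36 became -0.0066, -0.0063, -0.043 (limma-voom), -0.046 (mice 1 to 5), -0.0065 (GC content correction) and between -0.15 (without AD mouse 1) and 0.17 (without AD mouse 3). The causes of these shifts were not tested. The identity between the Mrps18 proteins was not analysed here. Depth limits the members under about 10 CPM, whose standard errors reached 0.94.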
